A study of Mus musculus with 8 samples.

Results

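The genes described are 31 genes of cholesterol synthesis and transport, read in ribosome pull-downs from hippocampal cells of the cholecystokinin (CCK) lineage of mice labelled conditional knockout (cKO) or wild type (WT) for the chromatin remodeller SMARCA3. They were listed by name as pathway genes, with earlier results of these data known, and each matched 1 of the 39017 genes in the count table. All 31 passed the filter on low counts that left 17654 genes for testing, with 49 counts (Srebf1) to 6551 counts (Fdft1) per gene and library. They comprise 18 enzymes that lead from acetyl-CoA to sterols, Ggps1 on a side branch, 5 regulators and 7 genes that move, store or remove cholesterol. The members' median log2 fold change in cKO over WT pull-downs was 0.07, against 0.02 for all genes tested. None of the 31 passed the adjusted threshold in edgeR's test. Of the 18 enzymes, 8 had a fold change above 0 and 10 below.

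Translating ribosome affinity purification pulls down tagged ribosomes with the RNA on them. The tag is L10-EGFP, an EGFP fusion of a ribosomal protein, carried by mice positive for CCK cre in both groups. The 5 cKO libraries came from mice that were also SMARCA3 fl/fl, and the 3 WT libraries came from littermates that were not. Each library was made from 4 pooled hippocampi, and age, sex and the relation between pools are not stated in the sources used here, so p-values measure the spread between these 8 pools only. The Cre driver marks cells by their use of the Cck gene, and both excitatory and inhibitory markers were read: Slc17a7, a vesicular glutamate transporter, lay at 439 to 548 CPM (counts scaled to library size) in cKO and 333 to 365 CPM in WT libraries, without overlap. Camk2a, a kinase of pyramidal neurons, lay at 6440 to 10060 CPM in cKO and 5930 to 6336 CPM in WT libraries, also without overlap. Of the enzymes that make GABA, Gad1 lay at 15.3 to 50.2 CPM in cKO and 24.5 to 44.7 CPM in WT libraries, and Gad2 at 49.6 to 87.7 CPM in cKO and 79.0 to 97.2 CPM in WT libraries. Of the 12 markers of CCK, pyramidal and other neurons, 2 passed an unadjusted edgeR p of 0.05 and lay higher (Slc17a7 and Camk2a), and 0 lay lower, where 5.02% of all genes lay higher and 3.70% lower. With no library of input RNA, enrichment over the whole tissue was not measured, and fewer cells of a type cannot be told apart from less RNA per cell.

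Library totals ran from 31760155 to 61823651 counts, and the 31 genes took 0.0722 to 0.0815% of them. Hltf, which encodes SMARCA3, was at 5.10, 4.49, 4.21 and 2.83 CPM in cKO 1 to 4 and at 11.4 CPM in the library labelled cKO 5, against 13.7, 8.39 and 9.87 CPM in WT 1 to 3. The library labelled cKO 5 thus lay in the WT range and goes against its label, which touches every direction given here. Over all 8 libraries the log2 fold change of Hltf was -0.93 (SE 0.39; edgeR unadjusted p 0.0383, adjusted p 0.558). The deleted gene itself thus did not pass the adjusted threshold. Principal component 1 of log2 CPM (31.2% of the variance) set the library labelled cKO 5 apart from the others, and component 2 (22.3%) did so for cKO 4. Genes described in full are therefore also given over the 6 libraries without this pair.

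The adult brain makes its own cholesterol, because lipoproteins of the blood do not cross the blood-brain barrier. The pathway condenses acetyl-CoA to HMG-CoA, passes through mevalonate and farnesyl diphosphate to squalene, closes the ring to lanosterol and trims it in many steps to cholesterol. SREBP transcription factors, encoded by Srebf1 and Srebf2, switch most of these enzymes on together: SCAP escorts them from the endoplasmic reticulum to be cut when sterols are scarce, and the INSIG proteins hold them back when sterols are plentiful. In neurons, cholesterol leaves largely through hydroxylation by CYP46A1.

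Promoters are shown for 3 enzymes from different steps, to make visible the kind of sequence through which SREBP and its partner NF-Y act. They are Hmgcs1, which lay lower in cKO, and Mvk and Sc5d, whose means were higher. Mvk had an unadjusted edgeR p of 0.0928. Sc5d, at 0.0430 by the same test, had overlapping groups. Each run is the 200 bases before a RefSeq transcript start on GRCm38.p6, read 5′ to 3′ on the strand of the gene. Capitals mark 4 motifs searched on both strands: TCACNCCAC, a core of the sterol response element; CCAAT, the NF-Y box; CACGTG, an E-box; and GGGCGG, a GC box. No motif letters were shared between motifs in these 3 runs.

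The Hmgcs1 run is chr13:119690151-119690350 on the plus strand, the Mvk run chr5:114444069-114444268 on the plus strand, and the Sc5d run chr9:42264301-42264500 on the minus strand.
Hmgcs1: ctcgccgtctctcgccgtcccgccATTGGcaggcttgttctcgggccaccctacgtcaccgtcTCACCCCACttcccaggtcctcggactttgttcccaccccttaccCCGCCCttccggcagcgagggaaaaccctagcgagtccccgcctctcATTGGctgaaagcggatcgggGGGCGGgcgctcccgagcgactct
Mvk: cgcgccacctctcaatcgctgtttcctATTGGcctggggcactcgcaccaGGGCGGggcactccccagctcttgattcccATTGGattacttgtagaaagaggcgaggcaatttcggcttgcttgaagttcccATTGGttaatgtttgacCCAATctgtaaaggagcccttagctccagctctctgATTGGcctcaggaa
Sc5d: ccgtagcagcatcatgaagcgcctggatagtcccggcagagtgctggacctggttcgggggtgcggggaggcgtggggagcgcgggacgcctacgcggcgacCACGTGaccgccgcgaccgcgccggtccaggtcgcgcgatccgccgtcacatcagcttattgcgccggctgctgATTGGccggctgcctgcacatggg

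The Hmgcs1 run holds the sterol response element core as TCACCCCAC, starting 137 bases before the transcript start, with an NF-Y box on either side of it. The Mvk run holds 5 NF-Y boxes, and the Sc5d run holds an E-box and 1 NF-Y box. RefSeq windows were matched for 26 of the 31 genes, 36 windows in all. Fdps, Fdft1, Sqle, Npc1 and Stard4 had no matched window and were not searched. Of the 250 bases before the start, 63.9% of member windows and 33.8% of all 32851 windows held an NF-Y box. A GC box stood in 69.4% of member windows and 32.7% of all windows. An E-box stood in 16.7% of member windows and 6.02% of all windows. The sterol response element core in these exact letters stood in 1 member window, that of Hmgcs1 (2.78%), and in 1.05% of all windows. The 32851 windows were not limited to genes that passed the filter on low counts, as all members did, so the 2 sets differ in more than the pathway. A match is a run of letters and does not show that a factor binds there.

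Levels are compared between genes only as CPM per kb of merged exons. On that scale Fdft1, squalene synthase, was highest, at 22.1 ± 2.16 in cKO (SD, n = 5) and 23.0 ± 1.42 in WT (SD, n = 3). In WT it did not differ beyond the spread from Hmgcs1, at 22.0 ± 1.43. In cKO libraries Acat2 followed at 15.9 ± 3.33 and Hmgcs1 at 15.3 ± 1.49, a difference smaller than their spread. In WT libraries Hmgcs1 stood above Acat2, which was at 15.2 ± 0.830. Ggps1, Cyp46a1 and Sqle came next in both groups. Acat2, which makes acetoacetyl-CoA, has a closely similar mouse paralog, Acat3, at a mean of 84.5 CPM in cKO and 103.5 CPM in WT libraries (log2 fold change -0.29, SE 0.11), so the split of reads between the pair is uncertain. At the low end were Srebf1 at 0.484 ± 0.214 in cKO and 0.559 ± 0.0174 in WT. Lss was at 0.703 ± 0.245 in cKO and 0.822 ± 0.113 in WT, and Abca1 at 0.834 ± 0.377 in cKO and 0.768 ± 0.254 in WT. In cKO these 3 genes did not differ from their neighbours in the order beyond their spread. In WT the same held except for Lss, whose mean ± SD did not meet that of Npc1, next above at 1.09 ± 0.118.

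**Figure D1:**
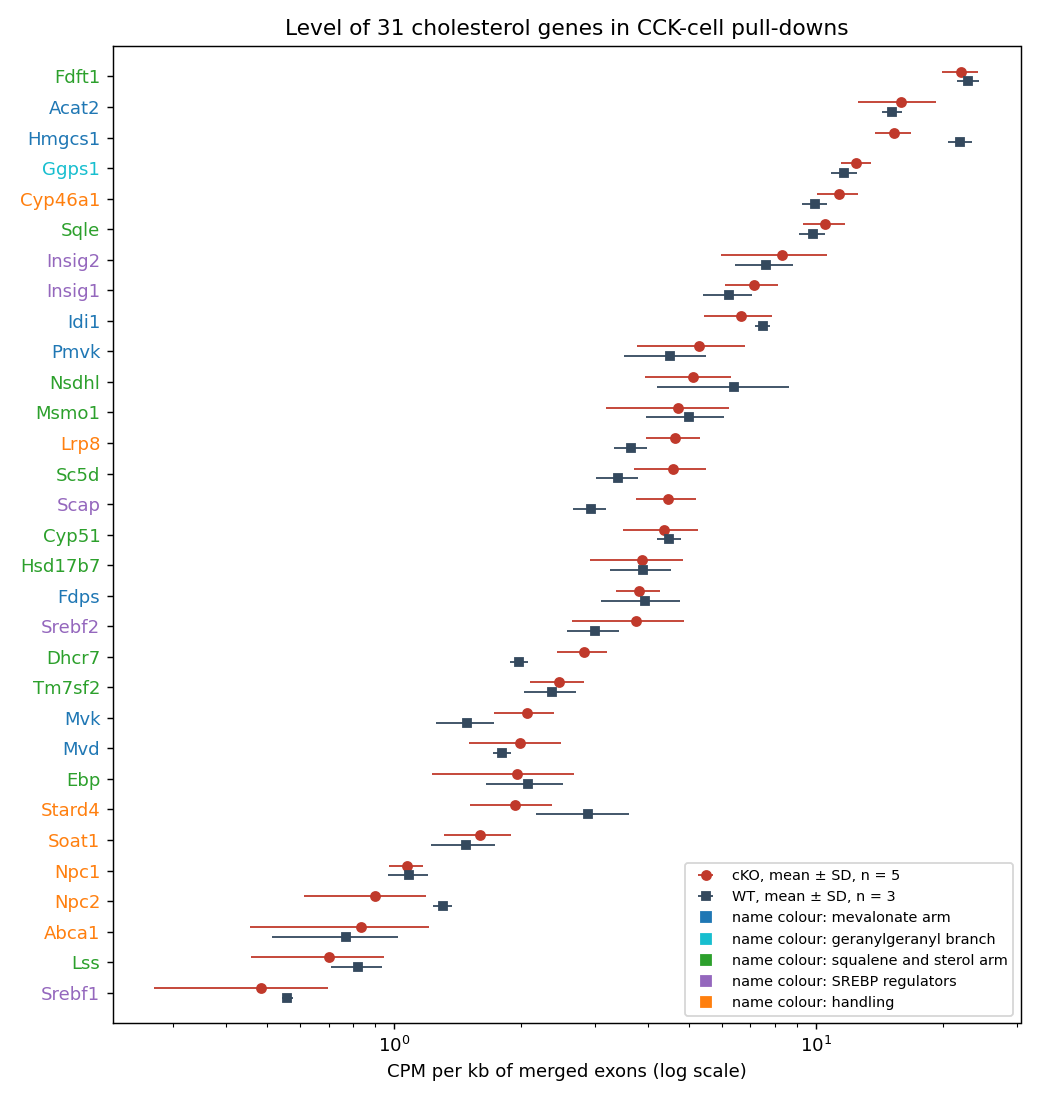
Mean level of each of the 31 genes in CPM per kb of merged exons (log axis), with SD over 5 cKO libraries (red circles) and 3 WT libraries (dark squares); gene names are coloured by role. Fdft1 had the highest mean in both groups, with Hmgcs1 within its spread in WT, and Srebf1 the lowest, and the bars of Hmgcs1 (15.3 in cKO, 22.0 in WT) do not meet.

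Comparing cKO with WT asks whether the conditional deletion of SMARCA3 goes with a change in the cholesterol genes on the ribosomes of these cells. By edgeR's quasi-likelihood test with Benjamini-Hochberg adjustment over all genes, 0 of the 31 were called higher and 0 lower, and 0 of the 17654 genes were (0.00% in each direction). At an unadjusted p under 0.05, 4 members lay higher (12.9% of 31; 5.02% of all genes) and 2 lower (6.45%; 3.70% of all genes). The 4 were Scap, Dhcr7, Sc5d and Lrp8, and the 2 were Hmgcs1 and Stard4. DESeq2 called Scap higher and Hmgcs1 lower, where it called 0.789% of genes higher and 0.523% lower. Library values did not overlap between groups for 4 members that were higher in cKO (Scap, Dhcr7, Lrp8 and Mvk; 3.38% of all genes) and 2 that were lower (Hmgcs1 and Stard4; 3.82% of all genes).

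**Figure D2:**
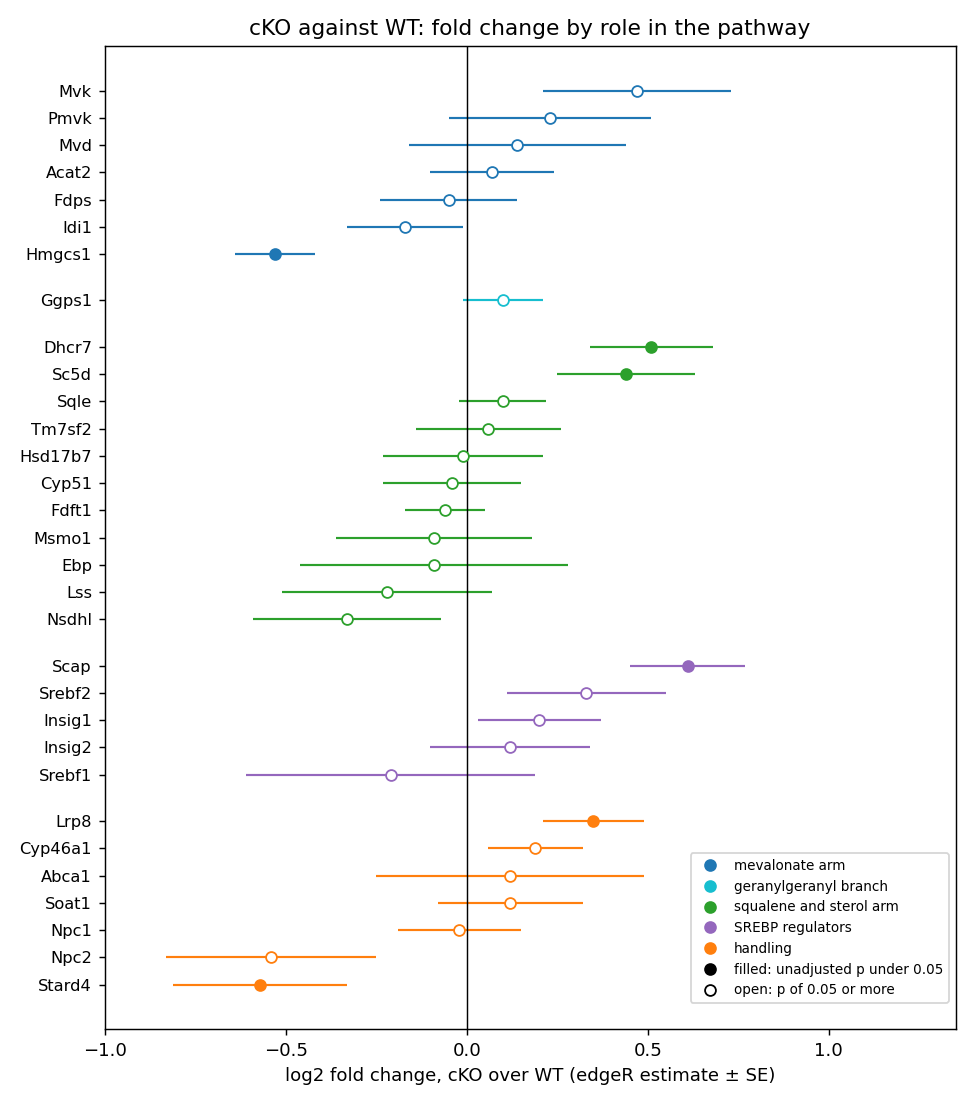
Log2 fold change of each gene in cKO over WT (edgeR estimate ± SE), grouped by role; filled points have an unadjusted p under 0.05. Filled points lie on both sides of 0: Scap, Dhcr7, Sc5d and Lrp8 on the right at 0.35 to 0.61, Hmgcs1 and Stard4 on the left at -0.53 and -0.57.

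Of the 7 mevalonate enzymes, 1 lay lower at an unadjusted p under 0.05 and 6 did not pass in either direction (median log2 fold change 0.07). Hmgcs1, HMG-CoA synthase, joins acetyl-CoA to acetoacetyl-CoA (ENSMUSG00000093930, mm10 chromosome 13, 119690379 to 119708260, plus strand). It was at 78.7, 73.9, 61.7 and 64.9 CPM in cKO 1 to 4 and 71.9 CPM in the library labelled cKO 5, against 95.8, 99.0 and 108 CPM in WT 1 to 3. All cKO libraries lay below all WT libraries, the library labelled cKO 5 included, and the smallest gap was that between 78.7 and 95.8 CPM. The fold was 0.695, a log2 fold change of -0.53 (SE 0.11; edgeR unadjusted p 5.5e-04, adjusted p 0.470). The exact permutation test of mean log2 CPM, two-sided, gave 0.0179, the smallest p that the 56 splits of 8 libraries allow. DESeq2 gave an adjusted p of 0.00474. Over all 19 alternatives the log2 fold change stayed between -0.57 and -0.46 and the adjusted p ran from 0.00474 to 0.951. Over the 6 libraries the log2 fold change was -0.51, with an edgeR adjusted p of 0.275. Hmgcs1 shares 12.1% of its merged exon bases with Gm48342 on the opposite strand, which is not in the count table. Without stranded counting, reads of that gene could be counted as Hmgcs1 where they overlap, and neither the use of strand nor the annotation release is stated.

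Mvk, mevalonate kinase, was at 4.66, 6.67, 6.30 and 4.90 CPM in cKO 1 to 4 and 5.08 CPM in the library labelled cKO 5, against 4.07, 4.56 and 3.32 CPM in WT 1 to 3. The groups did not overlap, but cKO 1 at 4.66 CPM and WT 2 at 4.56 CPM were close. Its difference was 0.47 on the log2 scale (SE 0.26; unadjusted edgeR p 0.0928; exact permutation p 0.0357), and 0.55 over the 6 libraries. Mvk is described in full for the separation of its groups, which the exact p repeats. Of the other enzymes of this arm, Pmvk and Mvd, which phosphorylate and decarboxylate the intermediate, were at 0.23 (SE 0.28) and 0.14 (SE 0.30). Idi1, the isomerase, was at -0.17 (SE 0.16), Fdps, farnesyl diphosphate synthase, at -0.05 (SE 0.19) and Acat2 at 0.07 (SE 0.17). Ggps1, which lengthens farnesyl diphosphate for protein prenylation, was at 0.10 (SE 0.11). These 6 genes had overlapping groups.

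The 11 enzymes from squalene to cholesterol had a median log2 fold change of -0.04, with 2 higher at an unadjusted p under 0.05 and 9 that did not pass. Dhcr7, the reductase of a last step to cholesterol (ENSMUSG00000058454, chromosome 7, 143823145 to 143848410, plus strand), was at 14.1, 14.7, 16.5 and 16.97 CPM in cKO 1 to 4 and 19.7 CPM in the library labelled cKO 5. In WT 1 to 3 it was at 11.2, 12.2 and 11.2 CPM. All cKO libraries lay above all WT libraries, with the library labelled cKO 5 highest. Dhcr7 differed by a fold of 1.42, or 0.51 on the log2 scale (SE 0.17; edgeR unadjusted p 0.0131, adjusted p 0.499; exact permutation p 0.0179). Over the 6 libraries the difference was 0.38 (unadjusted edgeR p 0.0405).

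Sc5d, the desaturase that acts just before Dhcr7 (ENSMUSG00000032018, chromosome 9, 42251595 to 42264256, minus strand), was at 21.2, 15.8, 22.7 and 24.9 CPM in cKO 1 to 4 and 27.2 CPM in the library labelled cKO 5, against 15.7, 15.2 and 18.7 CPM in WT 1 to 3. The groups overlapped, since cKO 2 lay within the WT range. Its log2 fold change was 0.44 (SE 0.19; edgeR unadjusted p 0.0430, adjusted p 0.562; exact permutation p 0.0714). Over the 6 libraries it was 0.26 (unadjusted edgeR p 0.176). Leaving out cKO 1, 3 or 4, the library labelled cKO 5, WT 1 or WT 2 on its own took the unadjusted p to 0.0526 to 0.131, above the threshold, while it stayed below without cKO 2 or WT 3.

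The 9 other enzymes of this arm lay between -0.33 and 0.10. Fdft1 (-0.06, SE 0.11), Sqle (0.10, SE 0.12), which adds oxygen to squalene, and Cyp51 (-0.04, SE 0.19), which demethylates lanosterol, are known targets of SREBP and had overlapping groups. Fdft1 shares 18.3% of its merged exon bases with Ctsb on the opposite strand, and the counting's use of strand is not stated. On the same strand, Tm7sf2 shares 12.1% with Vps51, and Fdps of the mevalonate arm 26.7% with Gm43738, which is not in the count table. Lss, which closes the ring, was at -0.22 (SE 0.29) and Nsdhl, a demethylating dehydrogenase, at -0.33 (SE 0.26). Msmo1, Hsd17b7, Ebp and Tm7sf2, which act in the steps between, lay from -0.09 to 0.06. Of these 4, Msmo1 spanned 15.5 to 39.2 CPM in cKO and 23.6 to 36.1 CPM in WT libraries, and Ebp 1.81 to 6.34 CPM in cKO and 3.75 to 5.72 CPM in WT libraries. The summed level of the 18 enzymes was 464 ± 22.4 CPM in cKO (SD, n = 5) and 490 ± 15.8 CPM in WT (SD, n = 3). Without Hmgcs1 the sum was 394 ± 18.1 CPM in cKO (SD, n = 5) and 389 ± 9.35 CPM in WT (SD, n = 3).

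Hmgcs1 at the start of the pathway and Dhcr7 at its end lay on opposite sides. Their ratio within a library does not depend on how libraries are scaled. Dhcr7 over Hmgcs1 was 0.179, 0.199, 0.268 and 0.262 in cKO 1 to 4 and 0.274 in the library labelled cKO 5, against 0.117, 0.123 and 0.103 in WT 1 to 3. The pair was picked for its values, so the separation is a description. Relative to the WT mean of each gene, the number of the 18 enzymes below that mean was 6, 9, 8 and 12 in cKO 1 to 4 and 8 in the library labelled cKO 5, and 9, 10 and 6 in WT 1 to 3. Their mean log2 deviation from the WT mean was 0.02 to 0.08 in cKO 1 to 3 and the library labelled cKO 5, and -0.21 in cKO 4.

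**Figure D3:**
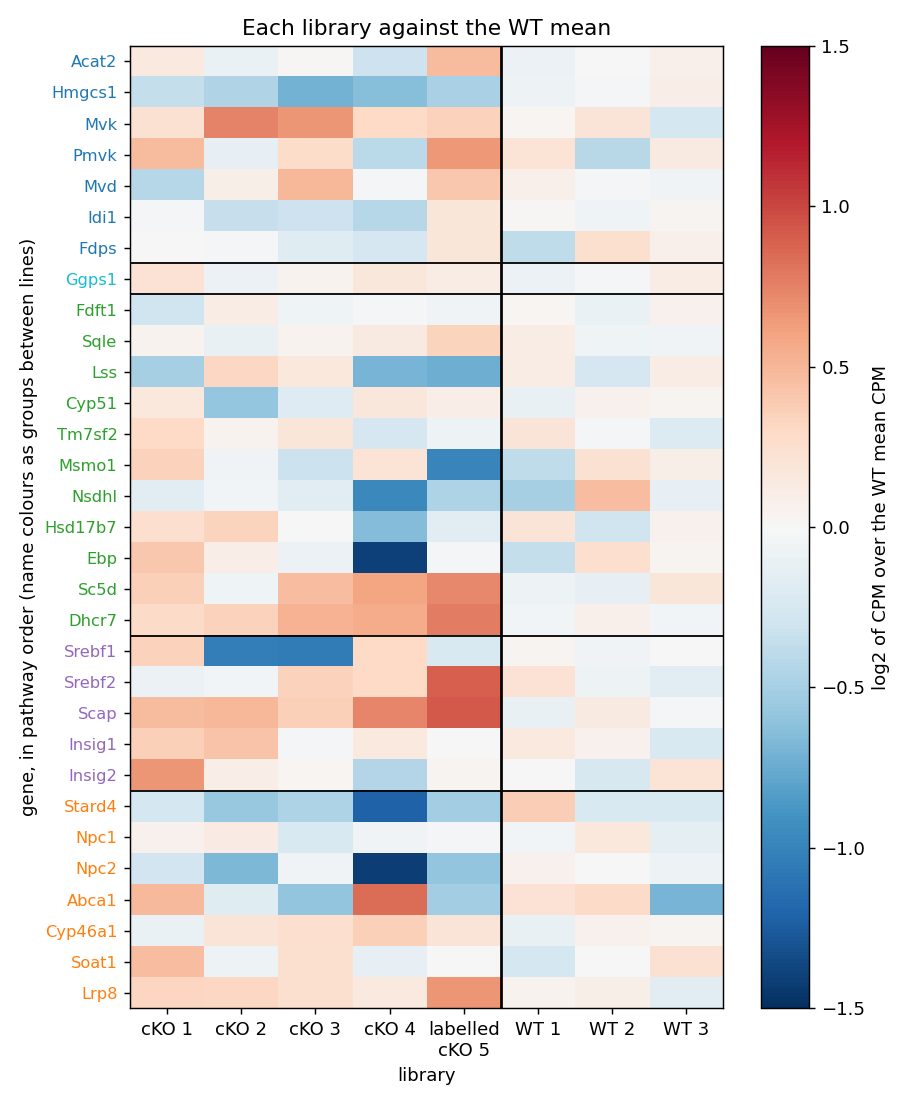
Log2 of each library's CPM over the WT mean CPM for 31 genes (rows, in pathway order, groups between lines) and 8 libraries (columns); red is above and blue below the WT mean. In all 5 cKO columns the Hmgcs1, Nsdhl, Stard4 and Npc2 rows are blue, and the Mvk, Dhcr7, Scap and Lrp8 rows are red. Some of these cells are faint, such as Nsdhl in cKO 2 (-0.04) and Npc2 in cKO 3 (-0.06). Most enzyme rows mix both colours.

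Among the 5 regulators, 1 lay higher at an unadjusted p under 0.05 and 4 did not pass (median 0.20). Scap, the sterol-sensing escort of SREBP (ENSMUSG00000032485, chromosome 9, 110333288 to 110384950, plus strand), was at 30.2, 30.8, 27.9 and 36.1 CPM in cKO 1 to 4 and 41.2 CPM in the library labelled cKO 5. In WT 1 to 3 it was at 20.1, 23.9 and 21.3 CPM. All cKO libraries lay above all WT libraries, with the library labelled cKO 5 highest. The fold was 1.53, a log2 fold change of 0.61 (SE 0.16; edgeR unadjusted p 0.00287, adjusted p 0.480; exact permutation p 0.0179). DESeq2 gave an adjusted p of 0.0330, and over all 19 alternatives the adjusted p ran from 0.0290 to 0.951. The difference was 0.44 over the 6 libraries (edgeR adjusted p 0.413) and 0.36 with a correction for GC content and length (unadjusted edgeR p 0.0219). Scap shares 13.2% of its merged exon bases with 5830462I19Rik on the opposite strand, which was itself at a mean of 8.065 CPM in cKO and 4.55 CPM in WT libraries (log2 fold change 0.83, SE 0.23). Without stranded counting, reads of the pair cannot be told apart where they overlap.

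Srebf2, the SREBP that drives cholesterol synthesis, was at 20.2, 21.0, 27.3 and 26.5 CPM in cKO 1 to 4 and 40.0 CPM in the library labelled cKO 5, against 24.9, 20.3 and 19.3 CPM in WT 1 to 3. The groups overlapped, and the log2 fold change of 0.33 (SE 0.22; unadjusted edgeR p 0.172) was 0.08 over the 6 libraries and 0.07 after the GC and length correction. It was 0.45 without WT 1 and 0.58 with the non-neuronal markers as a covariate (edgeR unadjusted p 0.00642, adjusted p 0.0963). Srebf1, whose products drive mostly fatty acid synthesis, was at 4.00, 1.53, 1.53 and 3.87 CPM in cKO 1 to 4 and 2.69 CPM in the library labelled cKO 5, against 3.24, 3.05 and 3.15 CPM in WT 1 to 3. The WT libraries were close to each other while cKO libraries lay on both sides of them (log2 fold change -0.21, SE 0.40; -0.42 over the 6 libraries).

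Insig1, both a brake on SREBP and one of its targets, was at 24.6, 25.96, 19.0 and 21.3 CPM in cKO 1 to 4 and 19.3 CPM in the library labelled cKO 5, against 21.3, 20.1 and 16.4 CPM in WT 1 to 3. Insig2, its relative, was at 41.9, 28.4, 27.0 and 19.6 CPM in cKO 1 to 4 and 27.2 CPM in the library labelled cKO 5, against 26.4, 22.4 and 30.6 CPM in WT 1 to 3. Both overlapped between groups, with log2 fold changes of 0.20 (SE 0.17) for Insig1 and 0.12 (SE 0.22) for Insig2, and of 0.26 and 0.29 for the same genes over the 6 libraries. The ratio of Scap to Insig1 was 1.23, 1.19, 1.47 and 1.70 in cKO 1 to 4 and 2.13 in the library labelled cKO 5, against 0.945, 1.19 and 1.30 in WT 1 to 3, so the groups overlapped in this ratio although not in Scap itself.

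**Figure D4:**
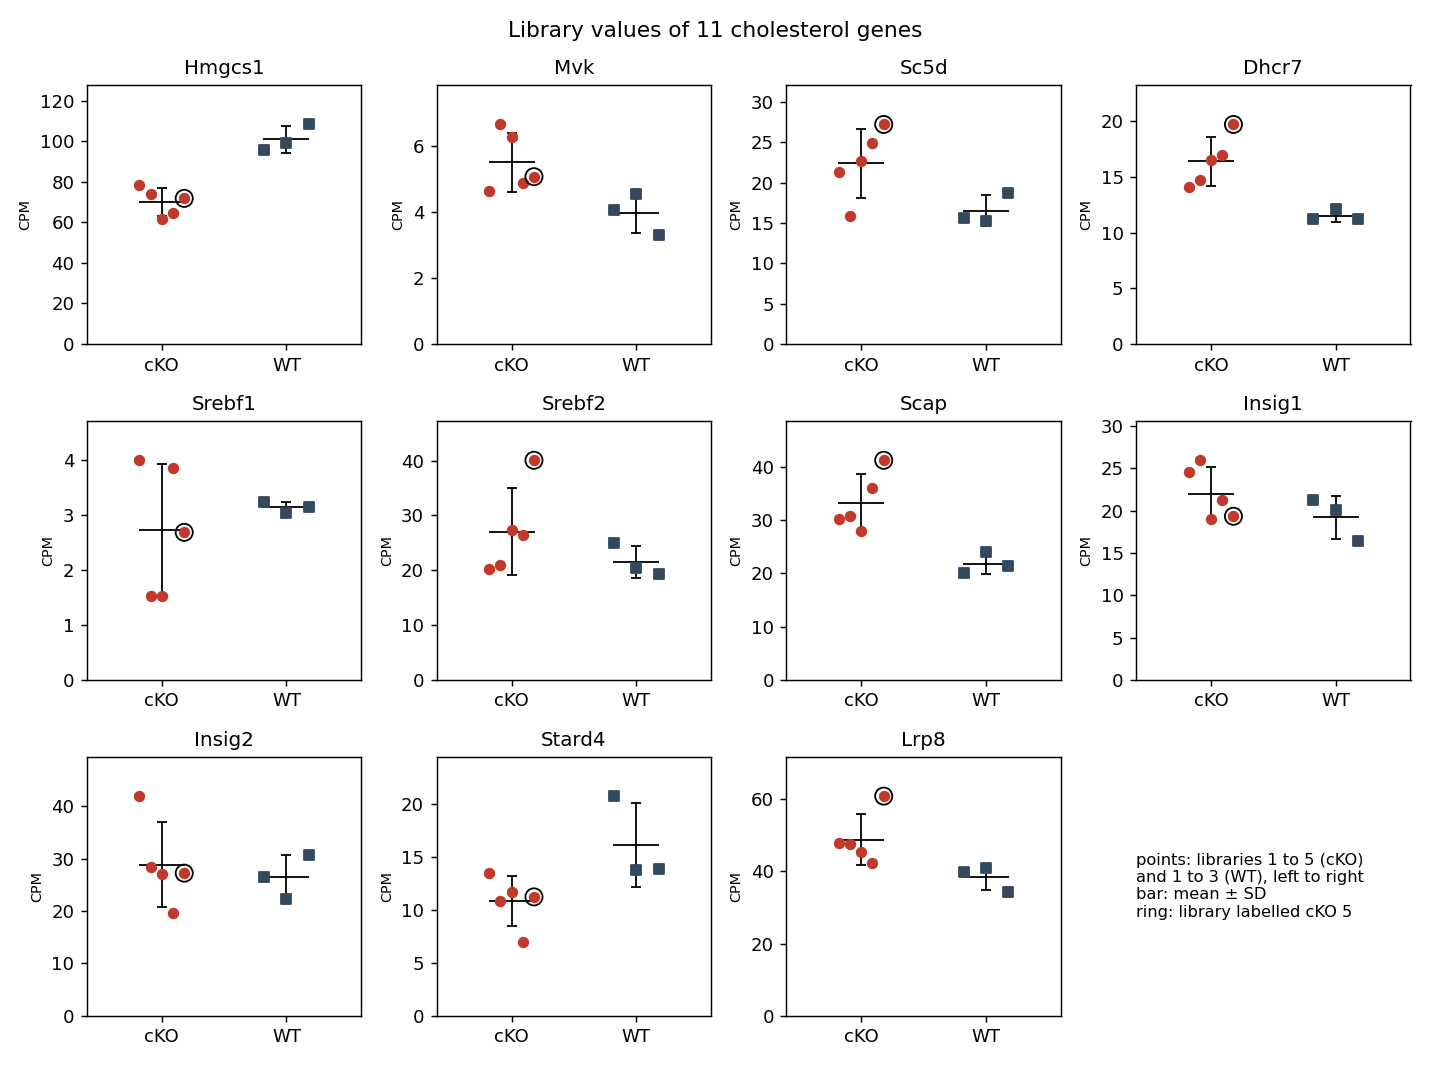
CPM in each library (points, libraries in number order from left to right) with mean ± SD, for the 11 genes described with all their values; cKO at left, WT at right, y axes from 0, and a ring on the library labelled cKO 5. The groups do not overlap for Hmgcs1, Mvk, Dhcr7, Scap, Stard4 and Lrp8, and they overlap for Sc5d and the other 4 regulators.

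Of the 7 handling genes, Lrp8 lay higher and Stard4 lower, both with unadjusted p values under 0.05, and 5 did not pass (median 0.12). Stard4, a cytosolic carrier of cholesterol between membranes and a known SREBP target (ENSMUSG00000024378, chromosome 18, 33199355 to 33213862, minus strand), was at 13.4, 10.9, 11.7 and 6.95 CPM in cKO 1 to 4 and 11.2 CPM in the library labelled cKO 5, against 20.7, 13.8 and 13.8 CPM in WT 1 to 3. The groups did not overlap, but cKO 1 lay just below WT 2 and WT 3, and WT 1 was well above them. Stard4 differed by -0.57 on the log2 scale (SE 0.24; edgeR unadjusted p 0.0326, adjusted p 0.548; exact permutation p 0.0357). Without WT 1 the difference was -0.35 (unadjusted edgeR p 0.203), without cKO 2 the p was 0.0540 at -0.57, and over the 6 libraries the difference was -0.43 (p 0.0540 by edgeR).

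Lrp8, a lipoprotein receptor of neurons that also binds reelin (ENSMUSG00000028613, chromosome 4, 107802261 to 107876840, plus strand), was at 47.9, 47.7, 45.3 and 42.3 CPM in cKO 1 to 4 and 60.9 CPM in the library labelled cKO 5. In WT 1 to 3 it was at 39.7, 40.8 and 34.4 CPM. The groups did not overlap, and cKO 4 at 42.3 CPM was nearest to WT 2 at 40.8 CPM. Lrp8 differed by 0.35 on the log2 scale (SE 0.14; edgeR unadjusted p 0.0313, adjusted p 0.542; exact permutation p 0.0357), and by 0.29 over the 6 libraries (unadjusted edgeR p 0.0372). Leaving out the library labelled cKO 5, WT 1 or WT 3 took the unadjusted p to 0.0573, 0.0551 and 0.127, above the threshold.

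Npc1 and Npc2 together release cholesterol from lysosomes. Npc1, a membrane protein, was at 12.1 ± 1.10 CPM in cKO (SD, n = 5) and 12.3 ± 1.33 CPM in WT (SD, n = 3), a log2 fold change of -0.02 (SE 0.17). Npc2, its soluble partner, was at 2.66 to 6.83 CPM in cKO and 6.72 to 7.42 CPM in WT libraries. The groups overlapped only through cKO 3, and its log2 fold change of -0.54 (SE 0.29; unadjusted edgeR p 0.0954) was -0.33 over the 6 libraries. Cyp46a1, the hydroxylase through which neurons dispose of cholesterol, was at 37.3 ± 4.18 CPM in cKO and 32.7 ± 2.23 CPM in WT libraries (0.19, SE 0.13), Soat1, which esterifies cholesterol, at 0.12 (SE 0.20), and Abca1, an exporter, at 0.12 (SE 0.37).

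Other genes of the pathway were counted on 3 lists. The first held 46 other sterol genes, of which 41 were tested: 6 had an unadjusted p under 0.05 and a higher level in cKO (14.6%, where 5.02% of all genes did) and 0 a lower one (3.70% of all genes), and the median was 0.15. After edgeR's adjustment over all genes 0 passed. The smallest p values belonged to Cyb5r3, a reductase of cytochrome b5, which feeds electrons to sterol and fatty acid desaturases (0.97, SE 0.26), Abca2, a lipid transporter of endosomes (0.37, SE 0.13), and Hsd3b7, an enzyme that modifies hydroxylated sterols (0.69, SE 0.25). Cyb5r3 was at 39.5, 35.4, 53.1 and 74.6 CPM in cKO 1 to 4 and 77.1 CPM in the library labelled cKO 5, against 25.7 to 34.0 CPM in WT libraries. The groups did not overlap, and cKO 4 and the library labelled cKO 5 were the highest. Of 13 fatty acid genes driven by SREBP1, at the same threshold 1 lay higher (7.69%), the desaturase gene Scd2 (0.34, SE 0.13), and 1 lower (7.69%), Me1, which makes NADPH (-0.39, SE 0.17), against the same 5.02% and 3.70% of all genes. The median was 0.19, and the elongase gene Elovl5 was at 0.38 (SE 0.21). Of 12 genes that use isoprenoids, 0 lay past an unadjusted p under 0.05 in either direction (median 0.06), with the smallest p for Rabggta (0.36, SE 0.23), Fntb (0.29, SE 0.23) and Pggt1b (0.33, SE 0.28), which act in protein prenylation.

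Glia make much of the cholesterol of the brain, so their markers are given beside these results. The 14 oligodendrocyte markers summed to 88.1 to 117 CPM in cKO and 75.5 to 81.9 CPM in WT libraries, and of the 13 tested all had a fold change above 0, 3 at an unadjusted p under 0.05 (23.1%; 5.02% of all genes lay higher), while 4 of the 14 stayed under 1 CPM throughout. No marker on these lists was at 0 in every library. The 7 precursor markers summed to 6.87 to 10.9 CPM in cKO and 4.49 to 5.55 CPM in WT libraries, with 2 of 7 higher at that threshold (28.6%). The 13 astrocyte markers summed to 350 to 561 CPM in cKO and 372 to 506 CPM in WT libraries, with 1 of 13 higher (7.69%), and the library labelled cKO 5 was lowest at 350 CPM. The astrocyte sum was mostly Slc1a2, at a mean of 378.9 CPM in cKO and 347.5 CPM in WT libraries. The higher astrocyte marker was Aldh1l1, which stayed under 1 CPM in every library. The 11 microglial markers summed to 7.90 to 15.3 CPM in cKO and 10.8 to 18.8 CPM in WT libraries, with 1 of 8 tested lower (12.5%; 3.70% of all genes lay lower). The 11 vessel markers summed to 21.5 to 86.8 CPM in cKO and 54.9 to 72.3 CPM in WT libraries, and 0 of the 4 tested passed. That sum was mostly Rgs5, at a mean of 56.4 CPM in cKO and 60.8 CPM in WT libraries. Of each list, 8 of 11 vessel, 5 of 11 microglial, 2 of 7 precursor and 1 of 13 astrocyte markers stayed under 1 CPM in every library. The vessel sum was lowest in cKO 4 and the library labelled cKO 5, where the mean log2 deviation of the 4 tested vessel markers was 0.21 and 0.51. With the mean log2 CPM of the tested markers of these lists as a covariate, 8 members passed an unadjusted edgeR p of 0.05. Of these, 5 were higher in cKO and 3 lower. Of all 17654 genes, 1903 lay higher and 1746 lower at that threshold, against 886 and 654 without the covariate. The 6 members that passed without it kept their sign: -0.56 for Hmgcs1, -0.65 for Stard4, 0.74 for Scap, 0.62 for Dhcr7, 0.54 for Sc5d and 0.44 for Lrp8. Srebf2 (0.58) and Npc2 (-0.74, unadjusted edgeR p 0.0432) passed as well. In that fit edgeR called Scap (adjusted p 0.0290) and Hmgcs1 (adjusted p 0.0392), among 288 genes called higher and 140 called lower. The covariate pools lists that moved apart in some libraries. Oligodendrocyte markers had a mean log2 deviation from WT of 0.73 in cKO 4, where microglial markers had -1.90. Both lists were higher in cKO 1, at 0.85 and 0.33. The pooled mean therefore does not follow the amount of a given cell type. Whether the calls and kept signs hold at equal glial content was not tested. The part of the pyramidal marker Slc17a7, which was higher in all cKO libraries (log2 fold change 0.49, SE 0.10), in the results on the 31 genes was not tested.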

How the data were processed

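The deposited file holds raw counts per gene for 8 libraries, and per the submitters' processing notes reads were aligned with STAR 2.5.3a to mm10 and counted with HTSeq. The annotation release, the use of strand and any filter by the authors are not given in the sources used here. Symbols, positions and exon lengths came from GENCODE vM21, and promoter windows from RefSeq (GRCm38.p6). The 31 genes and the other lists were chosen with earlier results of these data known.

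Counts were tested in R 4.3.3 with edgeR 4.0.16: filterByExpr by group, TMM scaling, a robust quasi-likelihood fit of cKO against WT and Benjamini-Hochberg adjustment over 17654 genes. The SE is the absolute log2 fold change over the square root of F. CPM values use TMM-scaled totals. Exact two-sided permutation tests compared mean log2 CPM over all 56 splits. For members whose groups do not overlap, this p was 0.0179 or 0.0357 and repeats that separation. Alternatives used DESeq2 1.42.0, limma 3.58.1, other scalings and filters, libraries left out, 6 libraries with and without a block, a GC and length correction, and a covariate of non-neuronal markers. The fit was tested on simulated data. Figures were drawn with matplotlib 3.10.9.

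Values in every library are given for genes with an unadjusted p under 0.05, genes whose groups do not overlap, and the 5 regulators. For other lists at most the 3 genes with the smallest p are named, except Gad1, Gad2, Rgs5 and Slc1a2, which describe the cells in the pull-down. Cyb5r3 is given by library. These exceptions were chosen after their values were seen.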

Additional observations from a re-analysis of the deposited data

Results flagged for a closer look

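In 40 sets of 5 cKO values (the 31 genes, Hltf and summed lists), 2 held a library far from the others, and chance alone flags about 1 in 20; none was one of the 31 genes. Hltf was at 11.4 CPM in the library labelled cKO 5, against 2.83 to 5.10 CPM in cKO 1 to 4, and the gap to the nearest was 0.737 of their range. The summed microglial markers were at 7.90 CPM in cKO 4, against 14.0 to 15.3 CPM in the other libraries labelled cKO, a gap of 0.826 of the range.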

How the results depend on the processing

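Over 19 alternatives, 541 of 589 comparisons of the 31 single genes kept their direction and side of the adjusted threshold, 4 gained the call, 40 changed sign, and 4 kept their sign where DESeq2 gave no adjusted p (Mvk, Mvd, Srebf1 and Ebp). The members' median log2 fold change ran from -0.02 to 0.11. Under DESeq2, and under the non-neuronal covariate, 1 member was called higher (Scap) and 1 lower (Hmgcs1). Over all genes DESeq2 called 86 higher and 57 lower, and the covariate fit 288 higher and 140 lower. Leaving out 1 library gave 2 to 4 members higher and 1 to 3 lower at an unadjusted p under 0.05, with 2 higher without WT 1 or the library labelled cKO 5 and 1 lower without WT 1 or cKO 2. In those fits 484 to 1146 of the 17402 to 18299 genes tested lay higher and 363 to 888 lower. Over the 6 libraries 3 members lay higher and 1 lower without the replicate block, and with the replicate block 1 lay higher and 1 lower. Of all 17381 genes tested there, 773 lay higher and 858 lower without the block, and 685 higher and 732 lower with it. The edgeR unadjusted p of Dhcr7 was 0.0690 with the block and 0.0405 without it, and that of Lrp8 0.0557 with it and 0.0372 without. Replicate numbers did not pair the libraries: the deviations of same-numbered libraries correlated at -0.085, 0.017 and 0.041. Changes of sign were in genes with small differences, and their cause was not tested. Over the 6 libraries, without and with the block, Sqle was at -0.01 and -0.01, Msmo1 at 0.01 and 0.0033, Hsd17b7 at 0.19 and 0.20, Ebp at 0.15 and 0.15, and Abca1 at -0.03 and -0.04, and Lss without it at 0.02. With limma-voom Acat2 was at -0.01, Hsd17b7 at 0.12 and Abca1 at -0.02. With the GC and length correction Mvd was at -0.04 and Hsd17b7 at 0.02. With the covariate Tm7sf2 was at -0.05, Insig2 at -0.08 and Soat1 at -0.05. With 1 library left out, log2 fold changes ran from -0.06 to 0.15 for Acat2, -0.21 to 0.09 for Fdps, -0.10 to 0.07 for Cyp51, -0.04 to 0.17 for Tm7sf2, -0.25 to 0.06 for Msmo1, -0.13 to 0.12 for Hsd17b7, -0.25 to 0.11 for Ebp, -0.05 to 0.24 for Insig2, -0.09 to 0.07 for Npc1, -0.13 to 0.29 for Abca1 and -0.0008 to 0.25 for Soat1. Srebf1 had the lowest counts of the 31 genes, 49 to 209 per library.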
